A study of Mus musculus with 24 samples.

Results

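Integrins and laminins join basal skin cells to the matrix beneath them, and the chromatin around their genes was followed here across 8 groups of sorted mouse skin cells before and after wounding. The members were 36 genes fixed by name, 26 integrin subunits and 10 laminin chains. Peaks of all 8 deposited ATAC-seq lists were merged into 63188 regions, and each region was given to the nearest protein-coding gene of the RefSeq annotation of mm10 within 50 kb. Of the 52791 regions that could be assigned, 205 belonged to a member, and 33 of the 36 members had at least 1. Itgad, Itgal and Itgax had none. ATAC-seq inserts sequencing adapters into open chromatin with a transposase, so a peak marks DNA that was accessible in the cells of that group.

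The mice came from a CD1 x C57BL/6J cross, and all carried a CreER driver with the R26-YFP reporter. Hair follicle cells (4 samples) and epidermal cells (4 samples) of unwounded skin at day 0, epidermal cells of unwounded skin at day 80 (3 samples), and cells from a partial-thickness wound at 3 times (3 samples at day 3, 2 at day 7 and 3 at day 80) were from Krt19-CreER/R26-YFP mice. Cells from a full-thickness wound at day 7 (3 samples) and day 80 (2 samples) were from Sox9-CreER/R26-YFP mice. Their lists are called partial-wound and full-wound lists here, and the 3 of day 3 and day 7 the early wound lists. Wound depth and driver line therefore differ together and cannot be told apart. Krt19 and Sox9 are genes of hair follicle stem cells, so both drivers are used to label follicle cells and their descendants. The sources used here give neither sorting gates nor ages. The title of the series names the question, whether stem cells keep epigenetic memories, and the lists let each region be traced from its cells of origin through the wound to day 80. Each group is 1 deposited list, so no value below has a spread between samples and no difference between groups was tested. Read counts are not used here, so the depth behind each list is unknown, and the intervals below cover counting error only.

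An integrin is a pair of an alpha and a beta subunit that spans the cell membrane and binds matrix outside the cell and the cytoskeleton inside it. In resting skin, Itga6 with Itgb4 forms the core of the hemidesmosome, the rivet that ties basal keratinocytes to laminin, and Itga2 or Itga3 with Itgb1 binds collagen and laminin. In wounds, keratinocytes that crawl over provisional matrix are known to turn to receptors for fibronectin and vitronectin, among them Itga5, Itgav, Itgb5 and Itgb6. Laminins are trimers of an alpha, a beta and a gamma chain, and those with the Lama3, Lama5, Lamb1, Lamb2, Lamb3 and Lamc1 chains are the ones known from epithelial basement membrane.

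The promoters show most directly how the members differ, because here the same 300 bases could be read in every list. RefSeq windows of GRCm38.p6, the assembly of mm10, run from 250 bases before to 50 after a transcription start, and 23 of the 36 members matched an entry, with 26 windows in all. A peak covered 7 of these in all 8 lists, 9 in 1 to 7 lists and 10 in none. Covered means an overlap of at least 1 bp, so the summit of the peak can lie outside the window. Examples with every summit outside were Lamb3 at start 2 (-872 to -299 bases from the start) and Lamb2 (-1012 to -761). Others were Lamb1 (-341 and 765), Itga5 (135 to 266) and Itga4 (321 to 459). Among all 32851 promoter windows the shares were 25.9% in all lists, 15.6% in some and 58.5% in none. The 8 windows printed next were chosen because they span these 3 outcomes. Capitals mark a GC box (GGGCGG or, on the other strand, CCGCCC) and a CCAAT box (CCAAT or ATTGG), and each sequence reads from 5′ to 3′ along the strand of the gene.

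Lamb1: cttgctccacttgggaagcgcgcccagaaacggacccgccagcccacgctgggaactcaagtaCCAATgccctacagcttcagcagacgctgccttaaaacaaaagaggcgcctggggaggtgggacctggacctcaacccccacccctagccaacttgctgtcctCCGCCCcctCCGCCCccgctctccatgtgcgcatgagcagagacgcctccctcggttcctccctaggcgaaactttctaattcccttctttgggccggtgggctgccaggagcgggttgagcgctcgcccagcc
Lama5: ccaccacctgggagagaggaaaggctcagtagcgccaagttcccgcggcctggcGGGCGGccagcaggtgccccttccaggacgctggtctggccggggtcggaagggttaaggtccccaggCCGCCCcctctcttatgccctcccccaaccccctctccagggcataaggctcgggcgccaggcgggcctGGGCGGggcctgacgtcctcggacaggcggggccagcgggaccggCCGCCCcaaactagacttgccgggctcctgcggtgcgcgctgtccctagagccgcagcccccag
Itga5: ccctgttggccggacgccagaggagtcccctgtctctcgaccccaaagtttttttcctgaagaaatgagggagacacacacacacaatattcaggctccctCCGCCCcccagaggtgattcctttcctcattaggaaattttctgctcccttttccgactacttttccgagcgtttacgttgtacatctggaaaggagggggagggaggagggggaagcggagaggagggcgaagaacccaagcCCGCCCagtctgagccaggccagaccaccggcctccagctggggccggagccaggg
Itgb5: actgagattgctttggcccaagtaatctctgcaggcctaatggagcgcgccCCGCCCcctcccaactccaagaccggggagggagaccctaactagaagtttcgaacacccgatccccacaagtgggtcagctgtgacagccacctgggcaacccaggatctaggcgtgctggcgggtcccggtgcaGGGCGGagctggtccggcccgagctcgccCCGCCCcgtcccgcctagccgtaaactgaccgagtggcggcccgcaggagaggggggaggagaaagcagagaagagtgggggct
Itgb8: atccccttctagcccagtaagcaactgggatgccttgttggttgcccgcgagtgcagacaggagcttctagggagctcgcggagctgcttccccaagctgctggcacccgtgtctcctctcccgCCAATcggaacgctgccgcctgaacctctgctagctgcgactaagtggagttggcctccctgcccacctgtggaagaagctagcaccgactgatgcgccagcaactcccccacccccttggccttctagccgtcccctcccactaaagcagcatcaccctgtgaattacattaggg
Itgb1: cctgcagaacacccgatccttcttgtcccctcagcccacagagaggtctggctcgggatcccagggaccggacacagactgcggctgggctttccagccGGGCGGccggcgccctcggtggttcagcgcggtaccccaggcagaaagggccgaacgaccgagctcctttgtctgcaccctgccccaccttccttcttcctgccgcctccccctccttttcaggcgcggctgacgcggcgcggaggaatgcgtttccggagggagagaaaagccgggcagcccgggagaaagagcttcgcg
Itgb6 start 1: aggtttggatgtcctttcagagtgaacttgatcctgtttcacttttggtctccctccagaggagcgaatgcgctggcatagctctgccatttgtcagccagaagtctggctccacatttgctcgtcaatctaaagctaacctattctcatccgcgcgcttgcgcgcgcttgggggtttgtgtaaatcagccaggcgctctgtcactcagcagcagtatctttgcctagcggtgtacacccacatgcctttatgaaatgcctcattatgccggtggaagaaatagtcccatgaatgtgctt
Itgb6 start 2: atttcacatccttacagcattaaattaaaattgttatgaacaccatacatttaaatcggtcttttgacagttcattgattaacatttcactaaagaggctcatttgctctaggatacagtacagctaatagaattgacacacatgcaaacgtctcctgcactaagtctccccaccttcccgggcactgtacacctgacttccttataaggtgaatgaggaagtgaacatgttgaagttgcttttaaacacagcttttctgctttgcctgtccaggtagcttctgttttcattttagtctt

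The Lamb1 window (chr12:31265043-31265342, plus strand), the promoter of the beta chain shared by several widespread laminins, was covered in the day 0 and day 80 epidermis lists and in no hair follicle or wound list. Both peaks were weak for their list. Their score percentile, the rank of a peak by the authors' score among the peaks of its own list, where high means strong, was 6.52 at day 0 and 1.77 at day 80. The Lama5 window (chr2:180225810-180226109, minus strand), the promoter of the alpha chain that is abundant under mature epidermis, showed the reverse presence. It was covered in the hair follicle list, in the partial-wound lists of days 3 and 7 and in both full-wound lists, with percentiles of 12.3, 39, 26.2, 34.3 and 48.2 in that order, and in neither epidermis list nor the day 80 partial-wound list.

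Among the integrin promoters, the window of Itga5 (chr15:103366742-103367041, minus strand), the alpha subunit of the main fibronectin receptor, had no peak in either day 0 list. It was covered in the day 80 epidermis list at percentile 13.9, in the partial-wound lists of days 3 and 7 at 24.4 and 48, and in the full-wound lists of days 7 and 80 at 48.8 and 6.35. Both lists of day 7 thus held it, as did 2 of the 3 lists of day 80. The Itgb8 window (chr12:119238227-119238526, minus strand), the promoter of a beta subunit that pairs with Itgav and releases active TGF-beta, was covered everywhere except in the day 80 partial-wound list. Its percentile was 96.1 in follicle cells, 78.8 and 57.3 in epidermis of days 0 and 80, 85.2 and 91.8 in the partial wound at days 3 and 7, and 54.6 and 33.8 in the full wound at days 7 and 80. The Itgb5 window (chr16:33829415-33829714, plus strand), of a vitronectin receptor subunit, was covered in the 3 unwounded lists and in the day 3 partial and day 7 full-wound lists, and in neither day 80 wound list.

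Promoters covered in every list belonged to Itgb1, Itga1, Itga8, Itgav, Lamb3 at both of its starts, and Itgb6 at start 2. The Itgb1 window (chr8:128685404-128685703, plus strand), of the beta subunit that most integrins of the skin share, lay between percentiles 55.2 and 91.1. Itgb6 had a covered and an uncovered start at once. Its start 1 (chr2:60722554-60722853, minus strand), at the end of the annotated gene where transcription begins, was in no list, while start 2 (chr2:60673644-60673943), inside the gene, lay between 15.6 and 71.4 in all 8. No peak covered the windows of Itga10, Itga11, Itga2b, Itga9, Itgb7, Itgam, Itgax, Lama2 or Itga3 at start 2. The Itga9 window lies inside the gene and not at its annotated beginning. The region over that beginning, chr9:118606185-118607228, was in the day 3 partial-wound list alone, at percentile 12. The Itga3 window at start 1 was covered in 5 lists, that of Itga2 in 7, that of Lamb2 in 3 and that of Itga4 in 2, the last being the hair follicle and day 3 partial-wound lists.

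**Figure D1:**
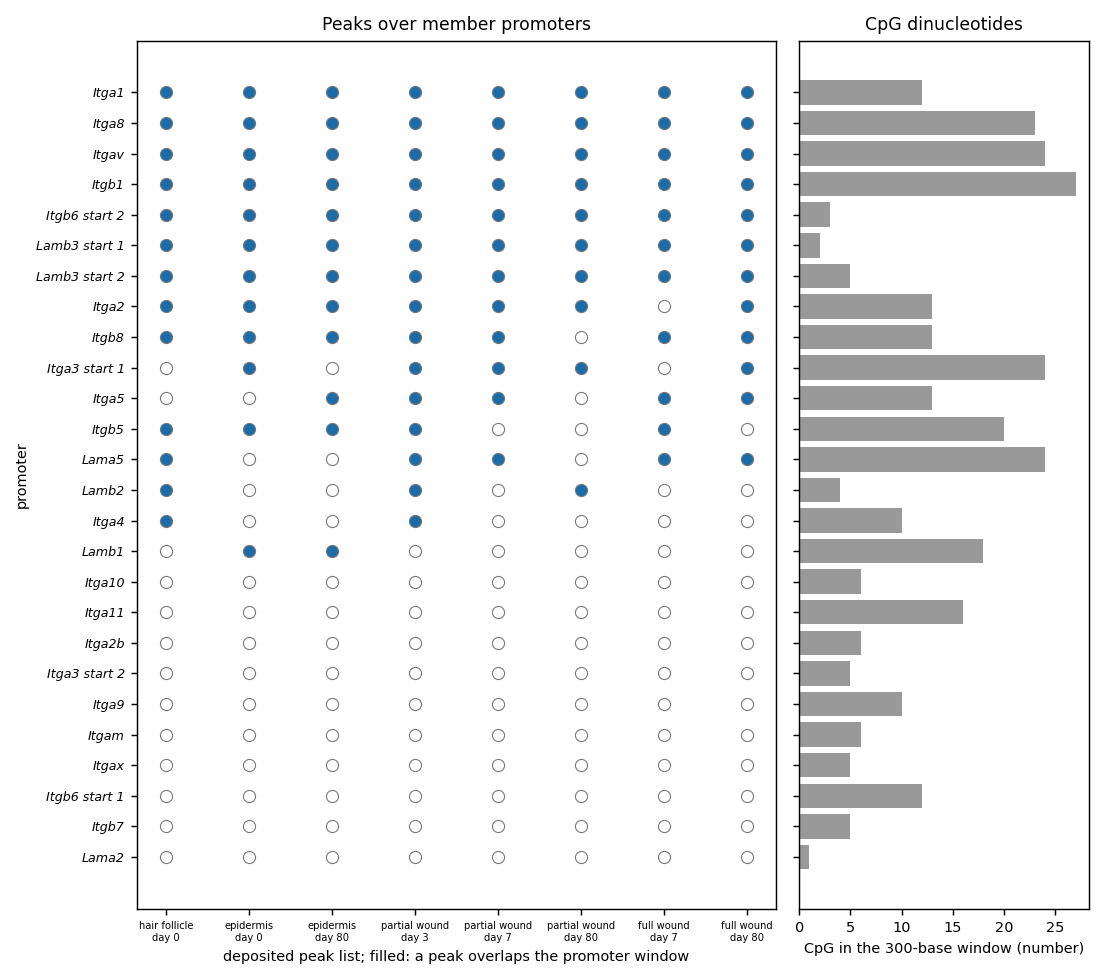
Left, presence of a peak (filled circle) over each of the 26 promoter windows of integrin and laminin genes in the 8 deposited lists. Right, the number of CpG dinucleotides in each 300-base window. The windows sort into 7 filled in every list, 9 filled in some and 10 filled in none, and Lamb1 and Lama5 have opposite patterns in the epidermal columns.

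The windows with a peak in some list were richer in CpG than those with none. Their median was 13 CpG dinucleotides (lowest 2, highest 27) against 6 (lowest 1, highest 16), and over all promoters the medians were 21 and 4. Itgb1 had the most, 27, and both Lamb3 windows were covered in every list with 2 and 5, although the summits lay outside the start 2 window. A GC box stood in 12 of 26 windows (46.2%, against 35.7% of all promoters) and a CCAAT box in 4 (15.4%, against 37.4%). The AP-1 motif TGANTCA, bound by Fos and Jun factors, stood in 3 windows (11.5%, against 7.81%), those of Itga3 at start 2, Itga9 and Itgax, none of which had a peak. The TATA box TATAAA was searched for and found in 0 of 26 windows (13.6% of all promoters). All motifs were searched on both strands, matches of different motifs were counted even where they overlap, and a match describes letters and not a bound site.

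Most of the members' regions lay away from promoters. Of the 205 regions, 168 (82%) lay inside or overlapped their gene, against 69.2% of all assigned regions, and 24 (11.7%) lay within 1 kb of a gene end, against 22.3%. The annotation used holds gene spans but no exons or UTRs, so regions are placed as inside or outside a gene. Members had a median of 5 regions each, against 2 over the 15667 genes with a region, and 8 members had 10 or more, as did 6.72% of all genes. Many of these genes are long, from 10.7 kb for Lamb2 to 636 kb for Lama2, and the number of regions was not corrected for length. Regions were 202 to 2978 bp wide with a median of 947 bp. In 4 cases, at Itga1, Itga4, Itgae and Lamb2, the region also overlapped another protein-coding gene (Pelo, Cerkl, Haspin and Usp19, respectively).

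The number of member regions per list ranged from 93 to 120. The hair follicle and day 0 epidermis lists held 93 each (45.4% of 205), and the day 80 epidermis list 102 (49.8%). The day 3, day 7 and day 80 partial-wound lists held 120 (58.5%), 109 (53.2%) and 99 (48.3%), and the full-wound lists 120 at day 7 (58.5%) and 107 at day 80 (52.2%). The early wound lists were thus the fullest, as they were for all assigned regions, where the shares were 46.8%, 49.2%, 51.5%, 59%, 56.8%, 54.5%, 61.2% and 53.1% in the same order. The lists ranged from 29365 peaks for hair follicle cells to 37214 for the full wound at day 7, and they differ in their weakest peak, whose −log10 p was lowest in day 80 epidermis (7.86) and highest in the partial wound at day 7 (40.19).

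**Figure D2:**
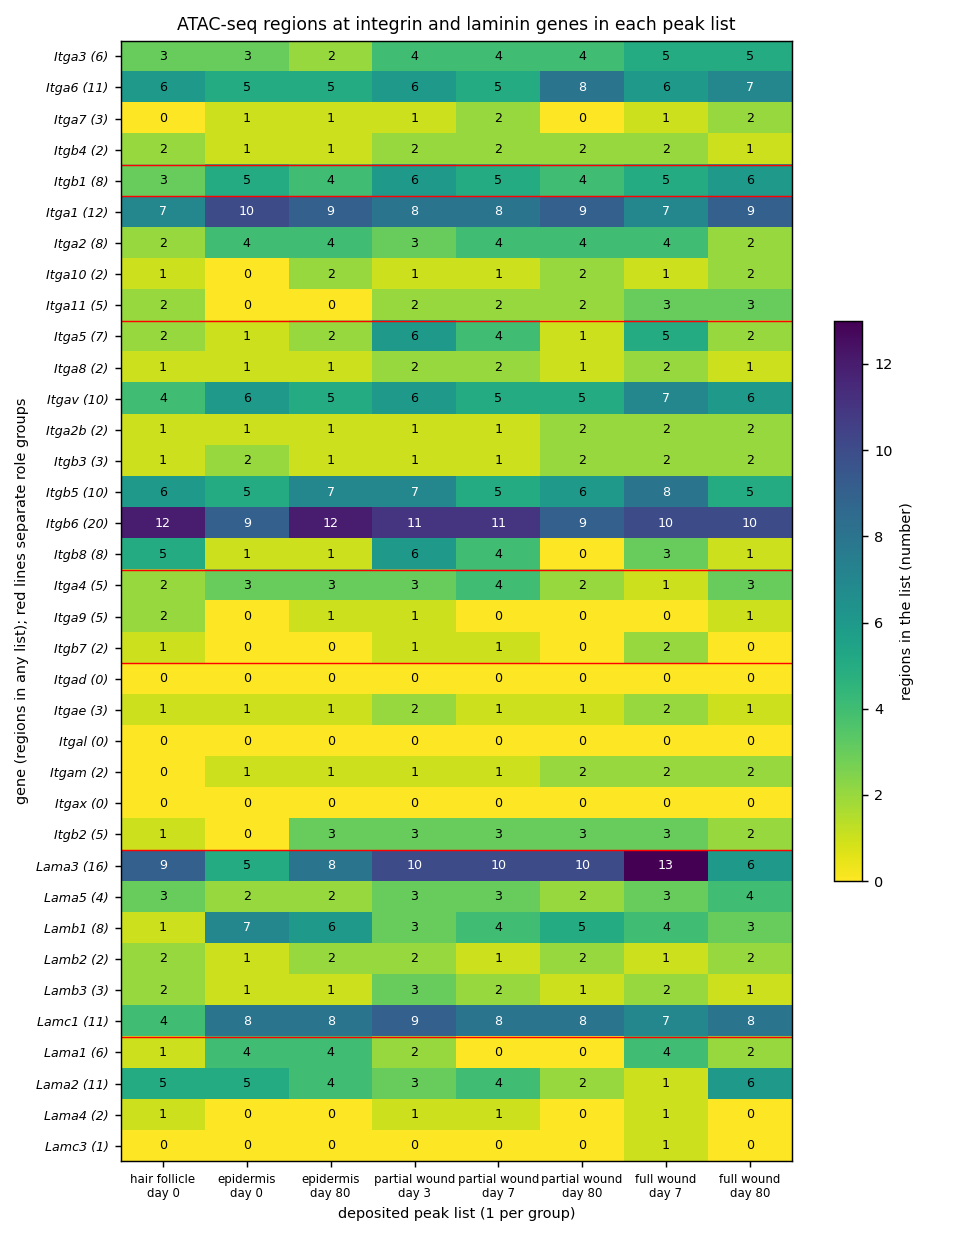
Number of regions of each integrin and laminin gene (rows, with the total over lists in brackets) in each of the 8 peak lists (columns), with lines between the role groups. Itgb6 and Lama3 are the darkest rows, Itgb8 is empty in the day 80 partial-wound column, and Itga11 is empty in both epidermal columns.

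Counts per gene are given below in 1 fixed order of lists, namely hair follicle, day 0 and day 80 epidermis, partial-wound days 3, 7 and 80, and full-wound days 7 and 80. The laminin receptors come first. Itga6 had 11 regions, of which 6, 5, 5, 6, 5, 8, 6 and 7 were in the lists. Its promoter-proximal region chr2:71786287-71788178 was in every list except that of day 80 partial-wound cells, and 2 further regions inside the gene were in all 8. The Itga6 upstream side, by contrast, separated the groups.

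The farthest Itga6 region, chr2:71738295-71740141, lay 46745 bp from the gene and was in the hair follicle list (percentile 50.1) and all 5 wound lists (23.4, 29.8, 17.9, 44.4 and 20.3) but in neither epidermis list. The summits of its best peaks spanned 1062 bp over these lists, so the peaks need not mark the same site. The neighbouring region chr2:71742035-71742694, at 44192 bp, was in the epidermis lists (15.1 and 48) and in the day 80 partial-wound list (65) alone. Nearer the gene, chr2:71761143-71761763 was in both epidermis lists (11.8 and 57.5) and both day 80 wound lists (59.9 and 30.2) and in no hair follicle or early wound list. At this gene the day 80 partial-wound list therefore held both the region shared by the follicle with all wounds and both regions shared with the epidermis. Inside the gene, chr2:71789310-71791097 was in the hair follicle list at a percentile of 1.01, in the day 3, 7 and 80 partial-wound lists at 57.7, 63.9 and 63.4, and in the day 7 full-wound list at 34.2.

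Itgb4, the hemidesmosome partner of Itga6, had 2 regions and counts of 2, 1, 1, 2, 2, 2, 2 and 1. The region over its start, chr11:115974261-115976852, was in every list but the day 80 full-wound one. The other, chr11:115969873-115971277, lay 3448 bp outside the gene and repeated the presence of the farthest Itga6 region: hair follicle (24.8) and all 5 wound lists (40.3, 33.8, 30.8, 50.7 and 22.3), and neither epidermis list. This presence was found at 3 of the 205 member regions, 1 each at Itga3, Itga6 and Itgb4 (1.46%, 0.303 to 4.22, against 0.443% of all assigned regions). The interval includes this background, and the presence was chosen after the Itga6 region was seen.

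Itga3, the laminin receptor subunit of cell adhesion outside hemidesmosomes, had 6 regions and counts of 3, 3, 2, 4, 4, 4, 5 and 5. Its region chr11:95072766-95073794, inside the gene, was the third of these. Itga7, known mainly from muscle, had 3 regions and none in the hair follicle or day 80 partial-wound lists. Itgb1 had 8 regions with counts of 3, 5, 4, 6, 5, 4, 5 and 6. Its region chr8:128666538-128667472, 18182 bp outside the gene, was among the strongest of all members, between 80.2 and 98.6 in all 8 lists. The Itgb1 region chr8:128650366-128650852, 34802 bp outside, was in both epidermis lists (51.1 and 30.6) and both day 80 wound lists (34.4 and 61.1) and nowhere else.

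**Figure D3:**
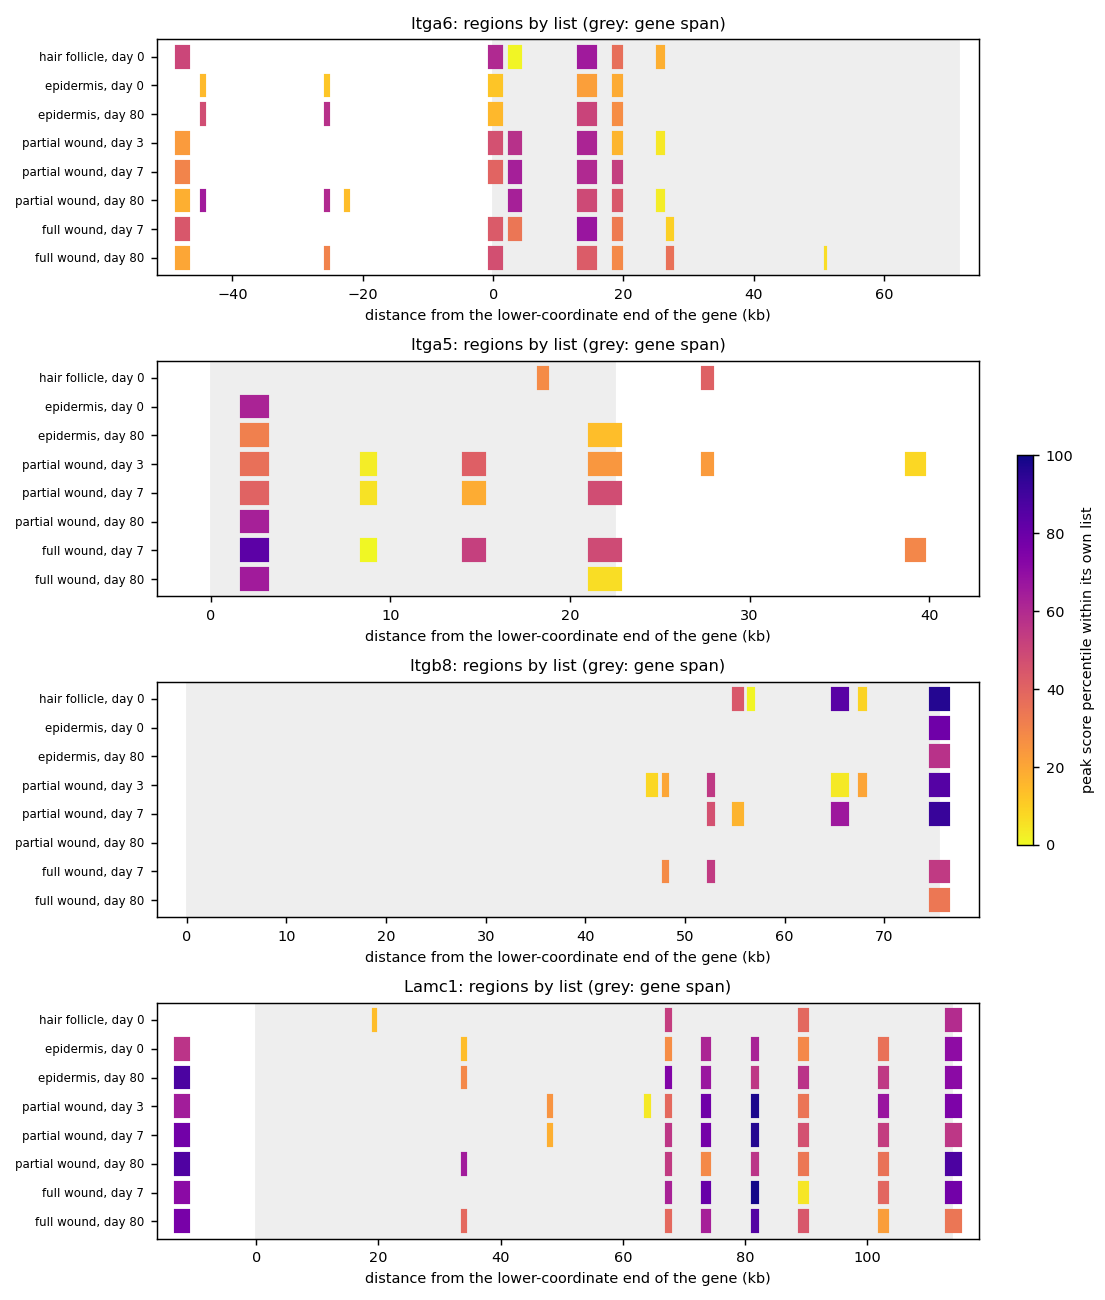
Regions of Itga6, Itga5, Itgb8 and Lamc1 in the 8 lists, by distance in kb from the lower-coordinate end of the gene (grey, gene span). Color is the score percentile of the peak within its own list. The Itga6 panel shows the follicle-and-wound region and the epidermal regions to the left of the gene, Itga5 and Itgb8 show blocks present in early wound lists, and Lamc1 shows 4 blocks missing from the hair follicle line alone.

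Collagen receptors gave 27 regions, with counts of 12, 14, 15, 14, 15, 17, 15 and 16. Itga1 held 12 of them, with counts of 7, 10, 9, 8, 8, 9, 7 and 9, and 5 of its regions were in all 8 lists. Of these, chr13:114963823-114964673 (78.9 to 95.8) and chr13:115089124-115091107 (76.8 to 96.4) had the highest mean percentiles. Itga2, the collagen receptor subunit of basal keratinocytes, had 8 regions and counts of 2, 4, 4, 3, 4, 4, 4 and 2. Itga11, a collagen receptor known from fibroblasts, had 5 regions and counts of 2, 0, 0, 2, 2, 2, 3 and 3. It had no region in either epidermis list and at least 2 in every other list. Among genes with 5 or more regions, every other list lay above both epidermis lists at 1 of 19 members and at 3.82% of 3538 genes. This order was chosen after the Itga11 counts were seen.

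The Itga11 region chr9:62786358-62787476, 2379 bp outside the gene, was in all 5 wound lists (51.9, 40.5, 33.1, 80.4 and 41.8) and in no unwounded list. The Itga11 region chr9:62777211-62778082, inside the gene, was in the hair follicle list (17.5), both early partial-wound lists (62.4 and 37.8) and both full-wound lists (28.5 and 3.26). Itga10 had 2 regions, and chr3:96649785-96650512 was in the day 80 lists of epidermis (11.5), partial-wound (66) and full-thickness wounds (22.3) and in no other. The 3 lists of day 80 shared that region across wounded and unwounded skin.

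The 8 genes of fibronectin and vitronectin receptors carried 62 regions, the most of any role, with counts of 32, 26, 30, 40, 33, 26, 39 and 29. Itga5 had 7 regions and counts of 2, 1, 2, 6, 4, 1, 5 and 2. The early wound lists held 4 to 6 of them and every other list 1 or 2. In an order chosen after the counts were seen, early wound counts lay above those of every other list at 1 of the 19 members with 5 or more regions, Itga5, and at 9.5% of the 3538 genes of any kind with as many. Its regions chr15:103352671-103353486 (2.76, 5.08 and 0.524) and chr15:103358321-103359568 (41.5, 18.7 and 52.4) were in the 3 early wound lists and no other, both inside the gene. A further Itga5 region, chr15:103345981-103347455, was in every list but that of hair follicle cells.

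Itgb8 had 8 regions with counts of 5, 1, 1, 6, 4, 0, 3 and 1. The hair follicle and early wound lists held 3 to 6, and the epidermal and day 80 wound lists held 1 or none. This order, chosen after the counts were seen, was found at no other of the 19 members and at 4.75% of the 3538 genes. The Itgb8 region chr12:119227598-119229128, inside the gene, was held by hair follicle cells (percentile 84) and by the partial wound at day 3 (3.74) and day 7 (66.1), and by no other list. Its region chr12:119215070-119215685 was in the 3 early wound lists (54.8, 46.6 and 54.2) and no other. The hair follicle list held 4 Itgb8 regions beside the promoter, all inside the gene, and none of these 4 was in an epidermal or a day 80 list.

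Itgb6, the beta subunit of an epithelial receptor that activates TGF-beta and is known to appear at wound edges, had 20 regions, the most of any member, as at least 20 were found at 1.22% of all genes with a region. Its counts of 12, 9, 12, 11, 11, 9, 10 and 10 differed little between lists, but the regions behind them differed. Of the 20, 5 were in all 8 lists, and chr2:60688984-60689668 was the most even, between 86.4 and 97.8. The region chr2:60700000-60701292 was in all 5 wound lists (46.3, 47.7, 5.69, 65.9 and 44.2) and no unwounded list. Its neighbour chr2:60703250-60703836 was in both epidermis lists (30.1 and 53.4) and both day 80 wound lists (35.9 and 17.9) and no other. The regions chr2:60632812-60633363 and chr2:60719761-60721290 were in the 3 early wound lists alone, and 3 were in the hair follicle list alone.

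Itgav, the alpha subunit shared by Itgb5, Itgb6 and Itgb8, had 10 regions and counts of 4, 6, 5, 6, 5, 5, 7 and 6. Itgb5 had 10 and counts of 6, 5, 7, 7, 5, 6, 8 and 5. Its region chr16:33871892-33873568 lay between 77.1 and 94.5 in all 8 lists. Itga8 had 2 regions, with the promoter in all lists and chr2:12077254-12078177, 28455 bp outside the gene, in the 3 early wound lists (11.1, 5.08 and 21.1). Itga2b and Itgb3, the pair of the platelet receptor, had 2 and 3 regions. The Itga2b region chr11:102455506-102456452 was in both day 80 wound lists (11.6 and 16.3) and the day 7 full-wound list (78.1), and the Itgb3 region chr11:104669483-104670493 was in both epidermis lists (28.8 and 44) and both day 80 wound lists (36.4 and 48.8). Of the platelet markers Pf4, Gp9 and Gp1ba, Pf4 had 1 region, in both full-wound lists, and the other two had none. The part of platelets in these regions was not tested.

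The Itga4, Itga9 and Itgb7 receptors, which bind fibronectin, tenascin and adhesion molecules of other cells, had 12 regions, none of them in all 8 lists. Itga9, a tenascin receptor subunit, had 5 regions, each in a single list, of which 4 lay inside the gene of 294 kb and 1, chr9:118908386-118908587, lay 7383 bp outside it. The region chr9:118692907-118693856 was in the hair follicle list at percentile 68.2. Itgb7 had 2 regions, and chr15:102224177-102225131 was in the hair follicle list (58.7) and the 3 early wound lists (56.3, 46.5 and 59.6). Itga4 had 5 regions and counts of 2, 3, 3, 3, 4, 2, 1 and 3.

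The 6 leukocyte integrins had 10 regions, at Itgae, Itgam and Itgb2. Itgb2, the beta subunit of leukocyte adhesion, had 5 regions and counts of 1, 0, 3, 3, 3, 3, 3 and 2. Itgam, a subunit of myeloid cells, had 2 regions. The Itgam region chr7:128088909-128089715, inside the gene, was in all 5 wound lists (61.5, 58.6, 26.8, 69.5 and 43.6) and no unwounded list. Itgae, the subunit by which T cells of epithelia hold to cadherin, had chr11:73137306-73138621 in all 8 lists (50.3 to 91.2), which also overlaps Haspin. Among 8 marker genes of T cells and other leukocytes, 4 had a region, and 0 of their 10 regions were in the hair follicle list against 2 to 4 in each other list. Cd3d, Cd3g, Tyrobp and Fcer1g had none. Of 5 myeloid markers, Cd207, Cd74, Csf1r and Lyz2 had none, and Cd68 had 1 region, in the hair follicle and 3 early wound lists. The part of leukocytes in these regions was not tested.

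Laminin chains of epithelial basement membrane had 44 regions, with counts of 21, 24, 27, 30, 28, 28, 30 and 24. Lama3, the alpha chain of the laminin that hemidesmosomes grip, led with 16 regions and counts of 9, 5, 8, 10, 10, 10, 13 and 6. The day 0 epidermis list held the fewest and the day 7 full-wound list the most. Lamb3, the beta chain of the same laminin, had 3 regions and counts of 2, 1, 1, 3, 2, 1, 2 and 1. Beside its promoter region, chr1:193326192-193327774 inside the gene was in the hair follicle list (56.8) and the day 3 and day 7 partial-wound lists (52.1 and 91.6) and in no other.

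Lamc1, the gamma chain of most laminins, had 11 regions and counts of 4, 8, 8, 9, 8, 8, 7 and 8. The hair follicle count lay below those of the other 7 lists, as it did at 4 of the 19 members (Itgav, Itgb1, Lamb1 and Lamc1) and at 24.3% of the 3538 genes. At Lamc1, 4 regions were in every list but the hair follicle one. The strongest, chr1:153300092-153301046, had percentiles of 62.8 and 55.4 in the epidermis lists, 97.8, 96.4 and 56.6 in the partial-wound lists and 99.1 and 85.8 in the full-wound lists. The others were chr1:153205677-153207905 (56.6 to 87.7), chr1:153291896-153293113 (28.5 to 80.8) and chr1:153320904-153322257 (22.3 to 67.2).

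Lamb1 had 8 regions and counts of 1, 7, 6, 3, 4, 5, 4 and 3. The epidermis lists held 6 or 7, the wound lists 3 to 5 and the hair follicle list 1. This order was chosen after the Lamb1 counts were seen, so that Lamb1 meets it was fixed in advance. It was found at no other of the 19 members and at 0.82% of the 3538 genes with 5 or more regions. The single Lamb1 region of the hair follicle list, chr12:31293840-31295826, was in all 8 lists (12.4 to 93). Lama5 had 4 regions and counts of 3, 2, 2, 3, 3, 2, 3 and 4. The Lama5 region chr2:180200303-180202259 was in the early partial-wound lists (2.12 and 6.46) and the full-wound lists of day 7 and day 80 (48.7 and 39.3) and in no unwounded list. Lamb2 had 2 regions and counts of 2, 1, 2, 2, 1, 2, 1 and 2.

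Other laminin chains are known from embryonic, muscle and vessel basement membranes and had 20 regions, with counts of 7, 9, 8, 6, 5, 2, 7 and 8. Lama1 had 6 regions and counts of 1, 4, 4, 2, 0, 0, 4 and 2. It had no region in the day 7 and day 80 partial-wound lists. The Lama1 region over the gene start, chr17:67696897-67698439, was in the other 6 lists (14.6 to 52.6). Lama2, the alpha chain of muscle laminin, had 11 regions and counts of 5, 5, 4, 3, 4, 2, 1 and 6. Its region chr10:26995519-26996893 had the highest mean percentile of all 205, 93.6 (79.8 to 97.7), at a gene whose own promoter window had no peak in any list. Lama4 had 2 regions and Lamc3 1, the latter in the day 7 full-wound list.

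Across the members, the comparisons that the design implies were read as shares of the 205 regions beside the same share of all assigned regions. For the cells of origin, 42 regions at 24 genes (20.5%, exact 95% Clopper-Pearson interval 15.2 to 26.7) were in the hair follicle list but missing from day 0 epidermis, where the background was 15.8%. The reverse held for 42 regions at 18 genes (20.5%, the same interval), against 18.2%. Both intervals include the background. When only the upper 50% of each list by score was used, the classes fell to 18 and 25 regions. The follicle class included 15 regions of fibronectin and vitronectin receptors and 9 of epithelial laminin chains, and the epidermal class 9 and 12. Regions in the hair follicle list and no other numbered 18 at 13 genes (8.78%, 5.29 to 13.5), against 7.44%.

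The strongest regions of the hair follicle list alone were at Lama2 (chr10:27280150-27281050, percentile 79.1), Itga2 (chr13:114838284-114839378, 70.5), the Itga9 region given above, and Itga1 (chr13:115062827-115063747, 60.5). In all, 4 of the 18 were above percentile 50. Those next in strength were at Itgb5 (46.8), Itgb6 (43.1), Lama2 (35.1) and Itga5 (27.9). In contrast, 0 of 205 regions were in the day 0 epidermis list alone, as were 1.12% of all assigned regions.

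The opposite class, every list but the hair follicle one, held 13 regions at 9 genes (6.34%, 3.42 to 10.6), against 4.74%. Lamc1 gave 4 and Itga1 gave 2, and Itga2, Itga4, Itga5, Itgav, Itgb5, Lama3 and Lamb1 gave 1 each. All 13 had a peak above percentile 50 in some list. Of the regions shared by all groups there were 36 at 18 genes (17.6%, 12.6 to 23.5), and the background of 24.4% lay above this interval. Summits of these 36 lay within a median of 154 bp over the 8 lists, and 21 had all summits within 200 bp. At the other end, 50 regions were in 1 list, with a median percentile of 15.2, and 7 of these were in the upper 50% of their list.

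**Figure D4:**
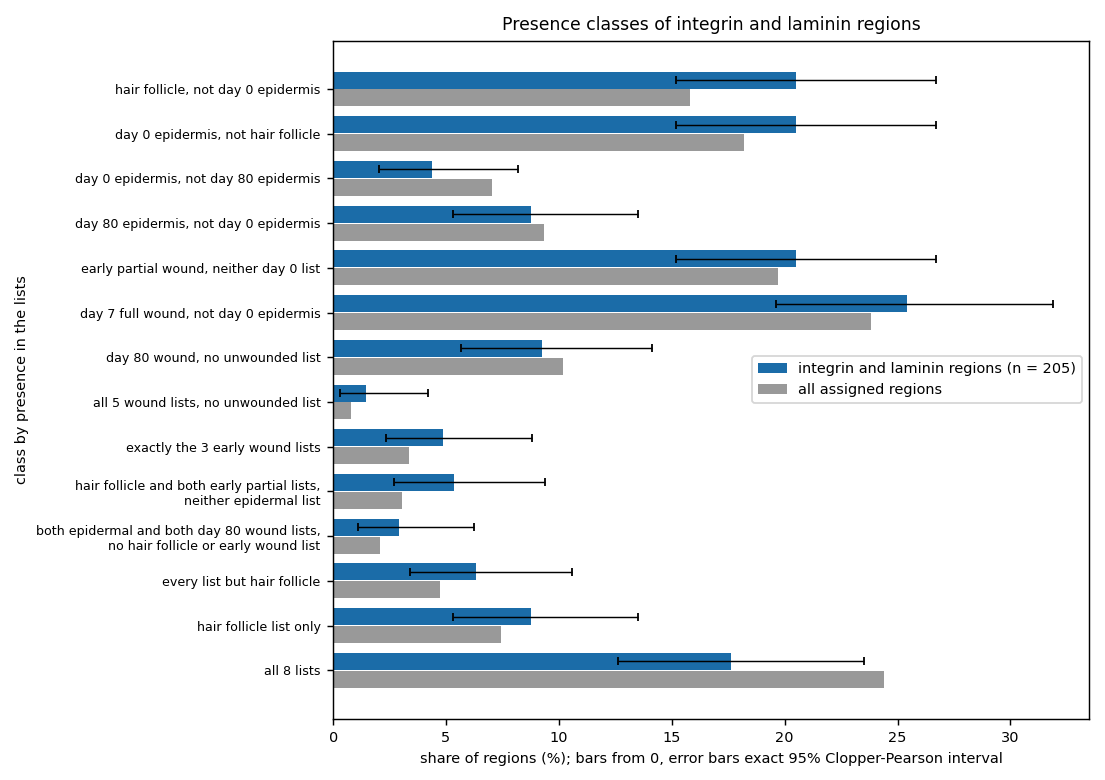
Share of the 205 integrin and laminin regions (blue, with exact 95% Clopper-Pearson intervals) and of all assigned regions (grey) in each of 14 presence classes. The grey bar falls inside the blue interval in 13 classes, and it lies above the interval for regions in all 8 lists.

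Unwounded epidermis was compared between day 0 and day 80. In the day 0 but not the day 80 epidermis list were 9 regions at 8 genes (4.39%, 2.03 to 8.17), against 7.02%, and 18 with peaks over 50% of each region. In the day 80 but not the day 0 list were 18 at 9 genes (8.78%, 5.29 to 13.5), against 9.34%, and it became 23 with that rule and 10 in the upper 50% of each list. In the second class Itgb6 had 4 regions, Itgb2 and Lama3 had 3 each and Itga10 and Itgb5 had 2 each. Itga5, Itga9, Lamb2 and Lama2 had 1 each. The epidermis lists shared 84 of their 111 regions (75.7%, 66.6 to 83.3), against 72% of all assigned regions. Hair follicle and day 0 epidermis shared 51 of 135 (37.8%, 29.6 to 46.5), below the 47.7% of all assigned regions. Low sharing was not particular to this pair, as day 0 epidermis and day 3 partial-wound shared 43%, against 51.3%. Members lay below all assigned regions in every pair but the epidermis pair and day 7 full-wound with day 3 or day 7 partial-wound. The latter shares were 69% against 68.9% and 67.2% against 66.5%.

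Early after a partial-thickness wound, 42 regions at 25 genes (20.5%, 15.2 to 26.7) were in the day 3 or day 7 list and in neither day 0 list, against 19.7%. Fibronectin and vitronectin receptors gave 15 of the 42 and epithelial laminin chains 7. With lists of equal length the 42 became 26, and with the upper 50% of each list 22. The day 7 full-wound list held 52 regions at 26 genes (25.4%, 19.6 to 31.9) that the day 0 epidermis list lacked, against 23.8%. Of these 52, the day 3 partial-wound list held 37 (71.2%, 56.9 to 82.9), against 62.8% for all assigned regions of the class. Exactly the 3 early wound lists held 10 regions at 8 genes (4.88%, 2.36 to 8.79), against 3.38%. They were 2 at Itga5, 2 at Itgb6 and 1 each at Itga8, Itgb8, Itgb2, Lama3, Lamb1 and Lama4. Fibronectin and vitronectin receptors gave 6 of the 10, and 62 of the 205 member regions (30.2%).

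Follicle features in wound cells were read from the hair follicle regions that day 0 epidermis lacked. Of these 42, the day 3 and day 7 partial-wound lists held 21 (50%, 34.2 to 65.8) and 16 (38.1%, 23.6 to 54.4), and the day 80 partial-wound list 11 (26.2%, 13.9 to 42). The list of unwounded epidermis at day 80 held 6 (14.3%, 5.43 to 28.5). This value cannot serve as a level without a wound, because the class leaves out every region of day 0 epidermis. The day 0 and day 80 epidermis lists shared 75.7% of the member regions in either, so the value can be low by this choice alone. For all assigned regions of the class the shares were 38.4%, 37.1%, 22.7% and 19.4%. The full-wound lists of days 7 and 80 held 14 (33.3%, 19.6 to 49.5) and 10 (23.8%, 12.1 to 39.5), against 27.4% and 19.6%. The intervals of day 3 and day 80 overlapped. With the upper 50% of each list the order of days 3 and 7 turned, at 38.9% and 44.4%, and the day 80 share was 11.1%. With the day 80 epidermis list as the reference, the partial-wound shares at days 3, 7 and 80 were 43.6%, 35.9% and 15.4%. With lists of equal length they were 34.9%, 32.6% and 18.6%.

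The hair follicle list and both early partial-wound lists, but neither epidermis list, held 11 regions at 9 genes (5.37%, 2.71 to 9.4), against 3.03%. Itga6 and Lama3 had 2 each, and Itga3, Itga11, Itgb4, Itgb7, Itgb8, Lama5 and Lamb3 had 1 each. Of the 11, 4 were at laminin receptors, which hold 22 of the 205 member regions (10.7%), and 4 at epithelial laminin chains, which hold 44 (21.5%). Among related genes, described further on, this class held 8 of 89 focal adhesion regions and 1 of 48 regions of other hemidesmosome and anchoring genes. It also held 1 of 92 regions of other basement membrane genes and 1 of 32 of other integrin ligands. The class was thus not particular to the members. The Itga6, Itgb4, Itgb7, Itgb8 and Lamb3 regions were given above, and the Lama5 region was that over its promoter.

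Epidermal features showed the other order over time. Of the 42 regions in day 0 epidermis and not the hair follicle, the partial wound list had 18 at day 3 (42.9%, 27.7 to 59) and 22 at day 7 (52.4%, 36.4 to 68), and at day 80 its list had 32 (76.2%, 60.5 to 87.9). All assigned regions of the class gave 46%, 53% and 72.4%. The members' shares lay near those of all regions at each time. In the full wound, 23 (54.8%, 38.7 to 70.2) were present at day 7 and 31 (73.8%, 58 to 86.1) at day 80, and the day 80 epidermis list had 36 (85.7%, 71.5 to 94.6), against 54.6%, 71.1% and 71.6% for all assigned regions. Both epidermal and both day 80 wound lists, but no hair follicle or early wound list, held 6 regions (2.93%, 1.08 to 6.26), at Itga6, Itgb1, Itgb3, Itgb6, Lamc1 and Lama2, against 2.07%. The Lamc1 region was chr1:153252685-153253189 (14.4, 28.6, 65.1 and 38.6) and the Lama2 region chr10:26988909-26989798 (76.2, 50.1, 33.8 and 28.1).

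**Figure D5:**
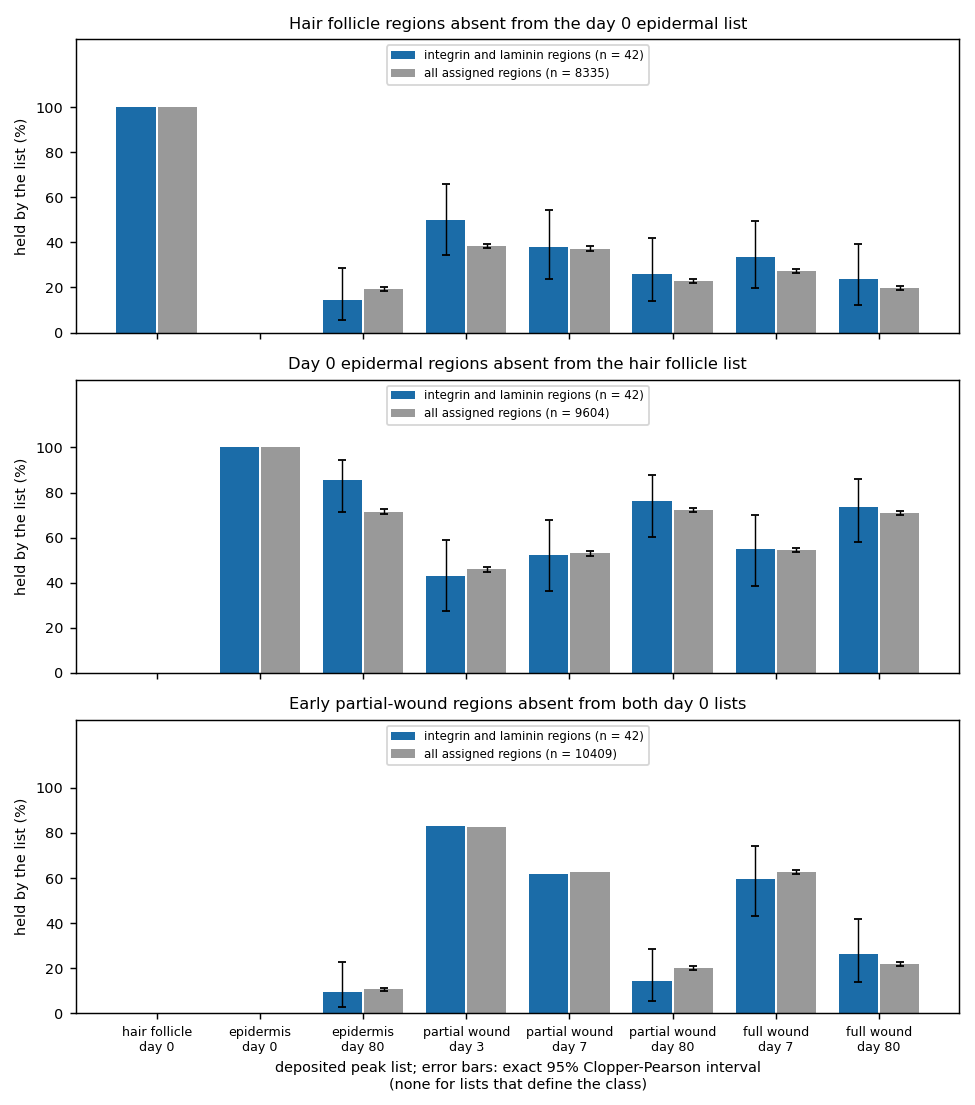
Percent of 3 classes of regions held by each of the 8 lists, for integrin and laminin regions (blue) and all assigned regions (grey), with exact 95% Clopper-Pearson intervals. Beside the lists that define each class, follicle regions (top) were held most by day 3 partial-wound cells (50%), epidermal regions (middle) most by day 80 epidermis (85.7%), and 14.3% and 26.2% of early wound regions (bottom) were in the day 80 partial-wound and full-wound lists.

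Regions that outlast the wound were rarer. Of the 42 regions of the early partial-wound lists that neither day 0 list held, the day 80 partial-wound list held 6 (14.3%, 5.43 to 28.5) and the day 80 full-wound list 11 (26.2%, 13.9 to 42), while the day 80 epidermis list held 4 (9.52%, 2.66 to 22.6). All assigned regions gave 20.1%, 22% and 10.6%. The interval of the unwounded day 80 list overlapped those of both wounds. With peaks required over 50% of each region, the order of the wounds turned, at 28.1% for the partial and 10.5% for the full wound, with unwounded epidermis at 12.3%. In all, 19 regions at 14 genes (9.27%, 5.67 to 14.1) were in a day 80 wound list and no unwounded list, against 10.2%. Most were weak, with a median best percentile of 17.1 over the 5 wound lists, and 4 of 19 were above 50 in some wound list. None of the 19 (0) had a peak in the upper 50% of the day 80 wound list that held it.

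All 5 wound lists and no unwounded list held 3 regions (1.46%, 0.303 to 4.22), at Itga11, Itgb6 and Itgam, against 0.771%. Their summits lay within 123, 60 and 2 bp over the lists. Of the other regions in a day 80 and an early wound list, those of Itga2b and Lama5 were given above, and others were at Itgav (chr2:83718334-83718823, 22.6 and 31.2 in the full-wound lists), at Itga6 (chr2:71813518-71814417, 9.61 and 35.8 in the same lists) and at Itga7 (chr10:128933742-128934478, 22.4 in day 7 partial-wound and 5.9 in day 80 full-wound cells). The class also held regions at Itga3 (chr11:95085475-95086871), Itgb1 (chr8:128679874-128680429), Itgav (chr2:83771293-83771801) and Itga11 (chr9:62763447-62764376, 8.21 and 3.46 in the full-wound lists). In both full-wound lists and no Krt19-CreER list were 3 regions, at Itga6, Itga11 and Itgav (1.46%, 0.303 to 4.22, against 0.371% of all assigned regions). The interval includes this background.

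Genes that work with the members were counted by the same rule, from lists chosen with earlier results known. The 13 focal adhesion genes, which couple integrins to actin, had 89 regions. Their lists held 37 (41.6%), 31 (34.8%), 31 (34.8%), 56 (62.9%), 51 (57.3%), 49 (55.1%), 58 (65.2%) and 35 (39.3%) in the fixed order. The wound lists other than day 80 full-wound thus held more of them than any unwounded list, and among all assigned regions these lists also held the most. Parva, which links integrin tails to actin, had this order with counts of 3, 2, 2, 8, 5, 5, 5 and 2. Vcl, the vinculin gene, had it with 4, 2, 3, 7, 7, 5, 7 and 2. So did Ptk2 with 5, 5, 3, 7, 7, 6, 9 and 6, and Lims1 with 2, 3, 2, 5, 5, 6, 6 and 3. Other genes of the list did not share this order. Fermt2, an activator of integrins, had 1, 0, 0, 4, 2, 0, 2 and 0, with day 80 partial-wound below hair follicle. Zyx had 3, 2, 2, 2, 2, 2, 2 and 2, and Bcar1 had 2, 3, 3, 3, 2, 3, 3 and 3. Tln2 had 2, 3, 4, 4, 5, 7, 2 and 3, and Ilk had 1 in every list. The genes named here were chosen after their values were seen.

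The 13 other basement membrane genes, such as Col4a1 and Fras1, had 92 regions and counts of 42, 39, 41, 34, 35, 35, 32 and 39. For these genes each unwounded list held at least as many regions as any wound list. The 6 genes of the hemidesmosome and its anchors, Col17a1, Dst, Plec, Cd151, Col7a1 and 1 other, had 48 regions and counts of 29, 22, 27, 32, 29, 26, 34 and 27. The 6 genes of other integrin ligands, among them Tnc and Fn1, had 32 regions and counts of 17, 11, 11, 10, 10, 8, 11 and 11, highest in the hair follicle list.

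Markers were checked against the labels. Of 6 hair follicle stem cell markers, with 56 regions, the hair follicle list held 33 and the day 0 and day 80 epidermis lists 16 and 14. Lgr5 had 7 regions in hair follicle cells, 1 and 0 in the epidermis lists, 7, 7 and 0 in the partial-wound lists and 1 and 0 in the full-wound lists. Basal keratinocyte markers had 37 regions, of which the day 0 epidermis list held 5 against 13 to 25 in the others. In that list Krt5 had no region and Trp63 had 2 of 22. The peak names of this list carry a tag for a day 7 control, although it was deposited as day 0. With the day 80 epidermis list in its place 0 of 7 results moved beyond their limits, which are wide. The day 80 partial-wound share of follicle regions fell from 26.2% to 15.4% (6 of 39), inside its interval of 13.9 to 42. Fibroblast markers had 11 regions, 7 in follicle cells and 2 to 4 in each other list, and Col1a2 had 2 in the hair follicle list alone. Endothelial markers had 18 regions, 5 to 14 in each list, with Kdr at 0. Melanocyte markers had 22, of which 15 were in follicle cells and 8 to 11 in each other list, and muscle markers had 5, with 1 to 4 in each list. The part of such cells in the members' regions was not tested.

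The 50 kb limit left some regions out. The farthest members kept were the 2 Itga6 regions at 46745 and 44192 bp and an Itgb1 region, chr8:128647548-128648397, at 37257 bp. The nearest regions left out were at Itga8 (chr2:12053503-12054579, 52053 bp), Lamb1 (chr12:31203607-31204587, 60559 bp) and Itgb8 (chr12:119099528-119100380, 62423 bp).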

How the data were processed

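Accessible chromatin was profiled by ATAC-seq in 24 samples in 8 groups. The data used are 8 deposited peak lists, 1 per group. Bowtie, Picard, MACS2 2.1.1.20160309, bedtools 2.29.2 and the mm10 build are named, per the submitters' processing notes, which give neither their roles nor whether samples were pooled before calling. Each deposited peak has a score, a fold enrichment as a ratio over local background and a −log10 p, all values the authors computed within their own list. They were used here only to rank or filter peaks within a list.

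The 267990 peaks were merged over lists, and a region counted as held by a list with a peak overlapping it by at least 1 bp, and the region took the score percentile of its best peak there. A region inside several genes counted for each. Exact 95% Clopper-Pearson intervals came from SciPy 1.17.1, with pandas 2.3.3 and numpy 2.4.6 under Python 3.11.15. Merging and assignment were tested on simulated data. The members, gene lists and classes were chosen with earlier results of these data known. Regions were named by coordinates where they fell in a class by wound, origin or day 80 presence, led the mean percentile over all lists, lay at a promoter or next to the 50 kb limit, with at most 8 per class taken by percentile, and regions of a gene described in full were added after their values were seen. Non-overlapping counts per gene were read against all genes with 5 or more regions, a comparison added after the counts were seen. That the members named meet these orders was therefore fixed in advance and is no test of them. No coordinates are given for Lama3. Alternatives were the upper 50% of each list, lists of equal length, peaks covering 50% of a region, windows of 0, 10 and 100 kb, and the day 80 epidermal list as the reference.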

Additional observations from a re-analysis of the deposited data

Results flagged for a closer look

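Itga4 and Lama2 had opposite differences between day 80 and day 7 in the 2 wound types. For Itga4, the number of regions at day 80 minus day 7 was -2 in the partial-thickness wound and 2 in the full-thickness wound. For Lama2 it was -2 in the partial-thickness wound and 5 in the full-thickness wound. With 1 list per group this difference was not tested, and wound type and driver line cannot be told apart. Of the 6 Lama2 regions in the day 80 full-thickness list, 1 was in the day 7 full-thickness list, the region chr10:26995519-26996893 that was in all 8 lists.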

How the results depend on the processing

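Of 98 recomputed values, 79 moved by less than a factor of 1.5 (counts) or stayed within their interval (shares), and 19 moved. With only the upper 50% of each list by score, the union of regions was 109, hair follicle without day 0 epidermis 18, the reverse 25, day 80 without day 0 epidermis 10, early partial-wound without both day 0 lists 22, day 7 full-wound without day 0 epidermis 20, day 80 wounds without unwounded lists 12, and the day 80 partial-wound share of follicle regions 11.1%, while the day 3 share (38.9%) fell below that of day 7 (44.4%). With peaks covering 50% of the region, day 0 without day 80 epidermis was 18 and the day 80 full-wound share of early wound regions 10.5%, below the partial-wound share (28.1%) and unwounded epidermis (12.3%), so the order of the main values turned; this rule kept 36.4% of the member regions of the day 80 full-wound list, whose peaks are narrow (median 460 bp), and 94.9% of those of the day 80 partial-wound list. With lists of equal length (29365 peaks) the early partial-wound count was 26, and with regions inside genes only the day 80 wound count was 12. A rule added after seeing the data asked for a peak in the upper 50% of the holding list and none in the other. It left 10 follicle, 15 epidermal, 1 day 0 epidermal, 0 day 80 epidermal, 10 early partial-wound, 13 day 7 full-wound and 0 day 80 wound regions. Windows of 10 and 100 kb and the day 80 epidermal reference moved no result beyond these limits. That reference lowered the day 80 partial-wound share of follicle regions from 26.2% to 15.4%, still inside its interval. No paired analysis was possible because each group is 1 list and the lists carry no replicate. For the same reason no replicate could be left out. The unknown depth and the differing weakest peak of each list limit any statement that a region was absent.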
